A study of Mus musculus with 6 samples.

Results

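Type I interferon-stimulated genes are the genes that a cell switches on after interferon alpha or beta has bound its receptor. The 32 members described here were taken by gene symbol from the 26903 genes counted in the series, and all 32 were listed in each of the 6 libraries. The libraries were made from single cells of renal cortex of 9-month-old mice, 3 wild type (WT) and 3 global *Prdm16* knockout (KO), with 1 library per mouse and every mouse labelled male. The KO mice carried a CRISPR-Cas9 deletion of *Prdm16* exon 2 that shifts the reading frame in all cells, and the WT mice carried no stated allele or treatment. The strain of these mice was not given in the sources used here, and the KO mice came from 1 deletion, so an effect of *Prdm16* loss and of anything else carried with that allele cannot be told apart. The comparison asks how gene expression in the renal cortex differs without PRDM16, a transcription regulator. The cortex was digested with enzymes at body temperature and red cells were lysed before capture.

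The receptor for type I interferon, IFNAR1 with IFNAR2, signals through the kinases JAK1 and TYK2 to transcription factors, STAT2 and IRF9 among them, which bind promoters of the responding genes. The products block viral replication, sense foreign RNA and DNA, and feed back on the pathway. In kidney, macrophages and endothelial cells are known to respond strongly, and type II and type III interferons induce many of the same genes. The members were the secreted and ubiquitin-like group (*Isg15*, *Usp18*, *Lgals3bp*, *Herc6*), the IFIT proteins that bind foreign RNA (*Ifit1*, *Ifit2*, *Ifit3*, *Ifit3b*), transcription factors (*Irf7*, *Irf9*, *Stat2*), nucleic acid sensors and a kinase (*Ddx58*, *Ifih1*, *Dhx58*, *Zbp1*, *Ifi208*, *Eif2ak2*), 2 OAS family members (*Oasl2*, *Oas1a*), 2 poly-ADP-ribose polymerases (*Parp9*, *Parp14*) and 11 membrane and effector proteins (*Ifitm3*, *Bst2*, *Rsad2*, *Cmpk2*, *Ifi27l2a*, *Ifi35*, *Ifi44*, *Rtp4*, *Samd9l*, *Trim30a*, *Xaf1*).

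The DNA element known for this response is the interferon-stimulated response element, a pair of GAAA blocks. RefSeq promoters (GRCm38.p6) were at hand for 25 of the 32 members. In the 250 bases before the start, 10 of the 25 members (40.0%) held GAAA, any 2 bases and GAAA again on either strand, against 936 of 27025 genes (3.46%). The stretches below come from some of the members that held a match and are named in the results that follow. Every match is in capitals. On the opposite strand the blocks read TTTC, and overlapping matches run together.
Isg15 (chr4:156200860-156200911, minus strand): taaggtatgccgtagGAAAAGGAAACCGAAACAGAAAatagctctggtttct
Ifit1 (chr19:34640770-34640828, plus strand): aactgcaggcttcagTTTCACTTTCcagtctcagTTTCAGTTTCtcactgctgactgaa
Ifit3 (chr19:34583358-34583431, plus strand): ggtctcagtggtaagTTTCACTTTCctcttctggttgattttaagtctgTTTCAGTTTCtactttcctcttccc
Ifit3b (chr19:34607754-34607827, plus strand): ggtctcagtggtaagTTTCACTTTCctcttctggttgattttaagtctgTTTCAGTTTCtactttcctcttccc
Bst2 (chr8:71537572-71537617, minus strand): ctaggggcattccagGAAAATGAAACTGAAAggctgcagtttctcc
Rsad2 (chr12:26456548-26456587, minus strand): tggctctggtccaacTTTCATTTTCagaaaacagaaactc
Ifi208 (chr1:173673592-173673631, plus strand): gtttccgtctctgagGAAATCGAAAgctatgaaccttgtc
The *Isg15* stretch held 3 overlapping matches and *Bst2* held 2 overlapping ones, whereas *Ifit1* held 2 separate ones. The *Ifit3* and *Ifit3b* stretches are identical letter for letter, and over the aligned upstream sequence 216 of 218 bases (99.1%) were the same. The mRNA sequences of this gene pair, from which the reads come, were not compared. Reads may have been split between the pair in the counting, so the value of each is uncertain. A match is a description of the letters and was not tested as a binding site. *Irf7*, *Ifitm3*, *Lgals3bp*, *Cmpk2* and *Ifi44*, which are also named below, had no match in this window. *Ifi27l2a* and *Usp18* were among the members without a promoter at hand.

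Levels are given as CPM, the unique molecular identifiers (UMIs, 1 per captured mRNA 3′ end) of a gene per 1000000 UMIs of a class in a library, with replicates 1, 2 and 3 always in that order. The 6 libraries held 96382945 to 121198131 UMIs, and 28488 cells were retained, from 3538 to 6276 per library, with a median of 2373 to 3569 UMIs per cell. Any pair of libraries shared 2 barcodes at most. Of 15 cell classes named from marker genes, 11 had at least 20 cells in every library and were tested. They are called "like" a cell type because the names were rebuilt, and proximal tubule-like cells were few (10 to 215 per library). The counts come from the 3′ end, outside the deleted exon, so the *Prdm16* level does not check the genotype.

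The library of WT replicate 2 stood apart and has to be described first. It held *Xist* at 297 CPM, and KO replicate 1 held it at 306 CPM, against at most 0.216 CPM in the other 4, and their Y-linked genes summed to 0.0566 and 0.0613 CPM, against 109.9 to 133 CPM. Both therefore go against the male label. In WT replicate 2 the members made up 0.226% of all UMIs, against 0.0719% to 0.111% in the other 5 libraries. Over all cells this library was the highest of the 6 for all 32 members, whereas it was highest for 19.1% of all genes tested. It also had the highest summed member level in 11 of 11 tested classes, between 1.84 and 5.66 times the median of the other 5 libraries. Results below are given with all 6 libraries, without WT replicate 2, and without both libraries that held *Xist*. With these left out the remaining groups hold 2 libraries each, or 2 against 3.

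Of the 11 tested classes the members were most abundant in macrophage-like, then endothelial-like, then stromal and mesangial-like cells, an order that held in 6 of 6 libraries. In macrophage-like cells the 32 members summed to 7793, 16515 and 14946 CPM in the WT libraries against 5338, 8955 and 13288 CPM in the KO libraries. Endothelial-like cells held 5367, 16305 and 5481 CPM in the WT libraries against 4158, 3739 and 3572 CPM in the KO libraries. In stromal and mesangial-like cells the sum was 3169, 12622 and 2875 CPM in the WT libraries against 2205, 1865 and 2231 CPM in the KO libraries. In the endothelial and stromal classes every KO sum lay below every WT sum, while the macrophage ranges overlapped. This did not hold in each cluster. The stromal class joined a cluster led by *Sfrp2* and *Ptn*, at 4259, 15095 and 4488 CPM in the WT libraries against 3758, 2679 and 2779.8 CPM in the KO libraries, and one led by *Ren1* and *Myh11*, at 597, 3669.8 and 248 CPM in the WT libraries against 808, 513 and 284 CPM in the KO libraries. In the second the groups overlapped, and it held 101 of the 200 stromal cells of KO replicate 1 but 42 of the 199 of WT replicate 2, and the part of this share in the class sum was not tested. Among the 4 endothelial clusters the groups overlapped in the one led by *Mgp* and *Fbln5*, at 4969.7, 15360.2 and 4662 CPM in the WT libraries against 5106, 4257 and 3409 CPM in the KO libraries, and not in the other three.

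**Figure D1:**
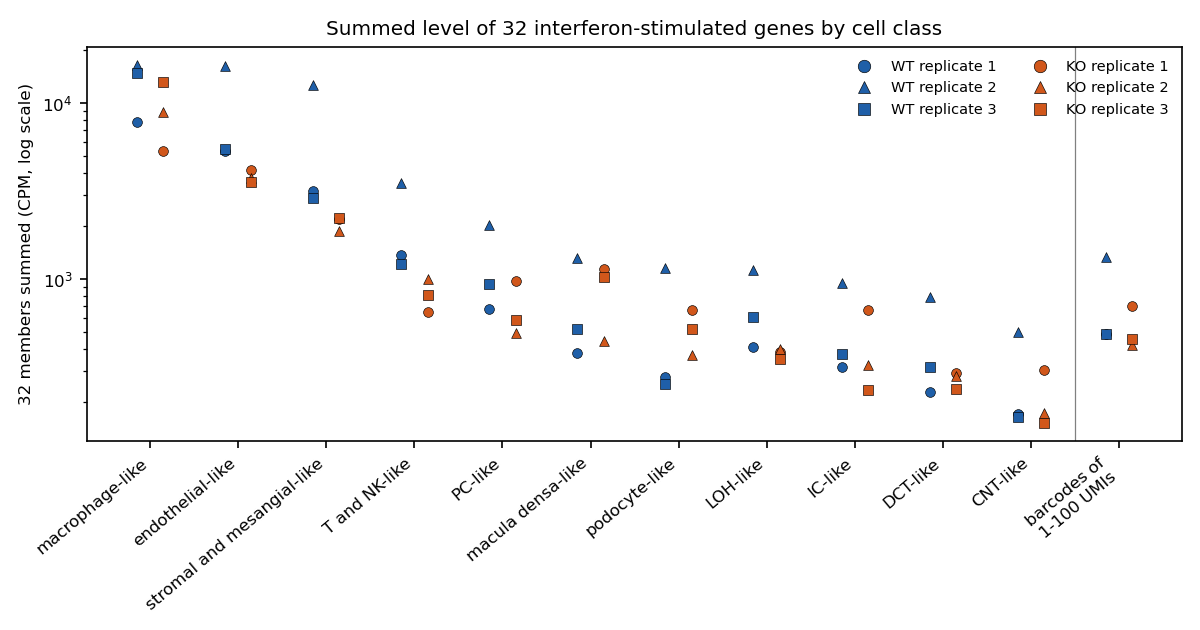
Summed level of the 32 members (CPM, log axis) in each tested cell class and, at the right, in barcodes with 1 to 100 UMIs, 1 point per library. PC, IC, DCT and CNT stand for principal, intercalated, distal convoluted tubule and connecting tubule cells. Macrophage-like, endothelial-like and stromal and mesangial-like cells are the highest classes in each library, and WT replicate 2 is the highest point in all 11 classes.

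T and NK-like cells followed with 1364, 3539 and 1217 CPM in the WT libraries against 646, 994 and 816 CPM in the KO libraries. Principal cell-like cells lay below them in 5 of 6 libraries. Principal cell-like cells held 679.6, 2017 and 935 CPM in the WT libraries against 977, 492 and 584 CPM in the KO libraries, and macula densa-like cells 380.4, 1321 and 520.5 CPM in the WT libraries against 1136, 446 and 1022 CPM in the KO libraries. Podocyte-like cells held 276, 1158 and 253 CPM in the WT libraries against 665, 369 and 520.0 CPM in the KO libraries. Loop of Henle-like (LOH-like) cells, which reabsorb salt in the thick ascending limb, held 409.9, 1119.6 and 605 CPM in the WT libraries against 385, 400.1 and 349.5 CPM in the KO libraries. Intercalated, distal convoluted tubule and connecting tubule-like cells ranged from 151 CPM to 950.4 CPM. Neighbours in the lower part of this order changed places between libraries, with podocyte-like above LOH-like cells in 3 of 6. RNA outside cells was read from barcodes with 1 to 100 UMIs, where the members summed to 489, 1343 and 487 CPM in the WT libraries against 699, 424 and 457 CPM in the KO libraries. Principal cell-like sums lay above the free value of the same library in each library. Intercalated, distal convoluted and connecting tubule-like sums lay below it in each library. Macula densa, podocyte and LOH-like sums lay above it in some libraries and below it in others. The part of free RNA in these sums was not tested.

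By member, the highest median level lay in macrophage-like cells for 20 of 32, in endothelial-like cells for 10 and in T and NK-like cells for 2 (*Ddx58*, which encodes the RNA sensor RIG-I, and *Ifi208*). The 10 endothelial members were *Bst2*, *Cmpk2*, *Ifi35*, *Ifi44*, *Ifitm3*, *Irf7*, *Irf9*, *Parp9*, *Usp18* and *Xaf1*. The 5 highest members of macrophage-like cells were *Rsad2*, *Ifit1*, *Ifit2*, *Ifit3* and *Ifitm3*. Those of endothelial-like cells were *Ifitm3*, *Rsad2*, *Ifi44*, *Lgals3bp* and *Xaf1*, and those of stromal and mesangial-like cells were *Ifitm3*, *Lgals3bp*, *Ifit3*, *Oasl2* and *Ifit1*. *Ifitm3*, which traps viruses in endosomes, stood in the stromal class at 1655, 5143 and 1545 CPM in the WT libraries against 1319, 1132 and 1395 CPM in the KO libraries.

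Cells were also compared at equal depth, with each cell thinned to 1000 UMIs and shallower cells left out. The share of endothelial-like cells with at least 5 member UMIs was 52.5, 98.4 and 53.1% in the WT libraries against 38.1, 29.2 and 30.8% in the KO libraries. In macrophage-like cells the share was 67.3, 92.7 and 80.9% in the WT libraries against 42.4, 64.2 and 62.3% in the KO libraries. In stromal and mesangial-like cells it was 29.5, 82.6 and 30.7% in the WT libraries against 16.7, 6.25 and 12.2% in the KO libraries. In all 3 classes WT replicate 2 was highest, and every KO share lay below every WT share. The exact 95% intervals, which cover counting error only, were 47.6% to 57.3% for WT replicate 1 and 35.2% to 41.1% for KO replicate 1 in endothelial-like cells, and 60.5% to 73.6% for WT replicate 1 against 55.1% to 72.7% for KO replicate 2 in the macrophage class, where they overlapped. Without thinning the shares in endothelial-like cells were 65.6, 97.0 and 63.0% in the WT libraries against 55.4, 49.1 and 46.2% in the KO libraries. In the stromal class they were 52.4, 89.4 and 55.6% in the WT libraries against 38.5, 43.0 and 47.4% in the KO libraries, and in the macrophage class 84.5, 96.5 and 86.3% in the WT libraries against 68.3, 80.5 and 84.9% in the KO libraries. The groups did not overlap without thinning in the endothelial and stromal classes, but KO replicate 3 lay above WT replicate 1 in the macrophage class. Cells left out as shallower numbered 527 in WT and 997 in KO for the endothelial class, 115 and 92 for the macrophage class, 50 and 41 for the stromal class, 439 and 415 for the LOH class and 161 and 274 for the podocyte class.

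In LOH-like cells the thinned share with at least 5 member UMIs was only 1.82, 2.97 and 3.17% in the WT libraries against 0.895, 1.53 and 0.735% in the KO libraries. The 10% of these cells with the most member UMIs held 40.8% to 76.3% of the member UMIs, against 18.3% to 27.4% in endothelial-like cells. The mean was 0.301 to 1.09 member UMIs per thinned LOH-like cell and 3.63 to 16.2 per endothelial-like cell. The share held by the top 10% depends on this mean, so it does not compare how concentrated the members were between these classes. The share of cells with 1 member UMI or more was 20.3, 55.6 and 27.9% in the WT libraries against 19.7, 22.1 and 20.04% in the KO libraries for LOH-like cells at this depth, and 53.4, 79.5 and 69.1% in the WT libraries against 57.8, 58.2 and 65.7% in the KO libraries without thinning. For podocyte-like cells, where the members are low, the thinned share was 21.5, 57.8 and 22.6% in the WT libraries against 44.6, 29.5 and 37.7% in the KO libraries.

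WT and KO were then compared within each class by edgeR's quasi-likelihood test on UMIs summed per library, with p adjusted over all genes of the class by the Benjamini-Hochberg method. Over the 11 classes 252 pairs of member and class had enough counts to test. In 13 pairs the member was lower in KO at an adjusted p below 0.05, and it was higher in 0 by edgeR, with 2 higher by DESeq2, which called 0.88% of all pairs higher. Of all pairs of gene and class, 0.745% were called lower and 0.802% higher. Unadjusted, the p was below 0.05 for 109 pairs that were lower and 6 that were higher. No share of all genes was computed at this unadjusted cutoff, here or for the later unadjusted counts. All shares called refer to the adjusted p. These 13 calls fell on 12 members, in LOH-like (9), macrophage-like (3) and endothelial-like (1) cells. The other 20 members had no call in any class with 6 libraries. In the sum over all cells 0 of 32 members passed by edgeR, beside 0.376% of all genes called lower, and 1 was called by DESeq2. At an unadjusted p below 0.05, 7 were lower by edgeR.

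**Figure D2:**
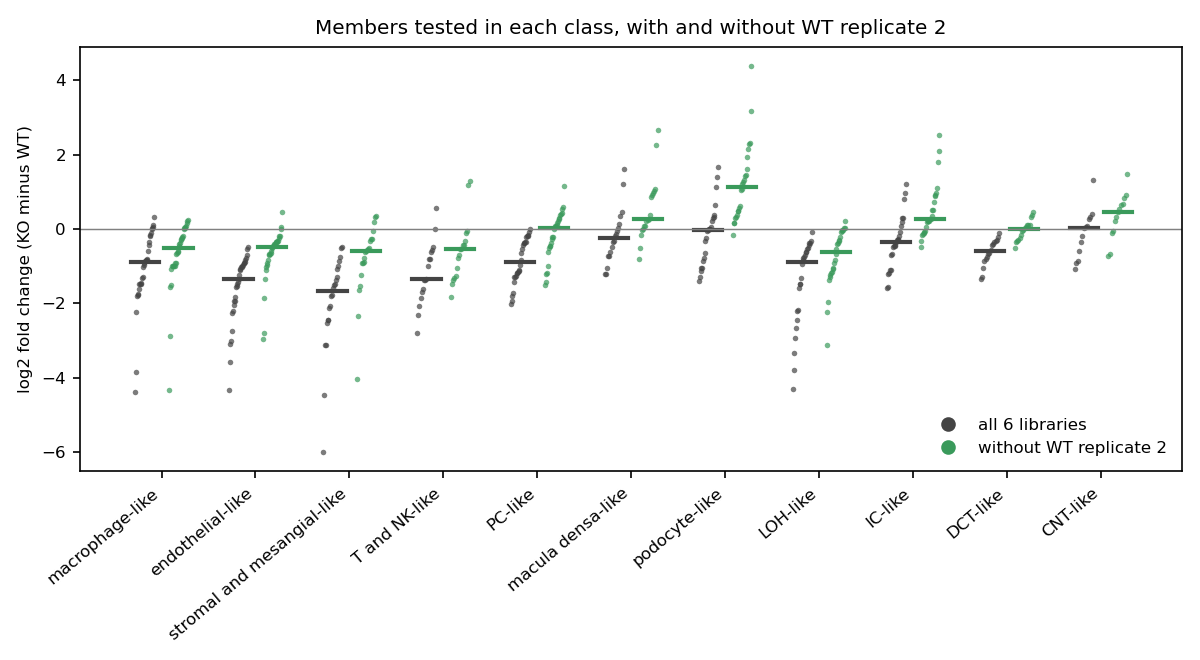
Log2 fold change (KO minus WT) of each tested member by cell class, with all 6 libraries and without WT replicate 2. The member medians with all 6 libraries are -1.36 in endothelial-like, -0.90 in macrophage-like and -0.02 in podocyte-like cells, and without WT replicate 2 they are -0.50, -0.53 and 1.14.

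In endothelial-like cells, which line the vessels, 31 of 32 members could be tested and all 31 had a negative fold change. In 22 of the 31 every KO library lay below every WT library, as did 7.37% of all genes tested. The median log2 fold change of the members was -1.36, that of all genes 0.00. Without WT replicate 2 it was -0.50. This library was the highest for all 31, so leaving it out cannot change which members overlap. 1 member passed the test (0.103% of all genes were called lower), and 28 were lower at an unadjusted p below 0.05.

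That member was *Ifi27l2a*, a small interferon-induced membrane protein. Its level was 236, 764 and 239.9 CPM in the WT libraries against 24.8, 46.6 and 31.97 CPM in the KO libraries. All 3 KO libraries lay far below the lowest WT library, and WT replicates 1 and 3 were nearly equal. It fell with a log2 fold change of -3.59 ± 0.45 (edgeR, adjusted p = 0.00388). Without WT replicate 2 the log2 fold change was -2.79 (edgeR, adjusted p = 3.02e-05), and without both *Xist*-positive libraries -2.53 (edgeR, adjusted p = 1.00e-04). The lower level was seen in each of the 4 endothelial clusters. In the cluster led by *Ehd3* and *Kdr* it was 137, 371 and 66.3 CPM in the WT libraries against 12.3, 10.96 and 9.60 CPM in the KO libraries, and in the cluster led by *Plvap* and *Esm1* 49.9, 292 and 83.3 CPM in the WT libraries against 0, 10.3 and 0 CPM in the KO libraries. The cluster led by *Sox17* held the highest levels, 319.7, 1340.4 and 490.0 CPM in the WT libraries against 55.2, 108 and 61.1 CPM in the KO libraries. In the cluster led by *Mgp* and *Fbln5* they were 326, 869 and 219 CPM in the WT libraries against 25.3, 0 and 62.4 CPM in the KO libraries. Free RNA held less of it, 12.3, 27.6 and 9.21 CPM in the WT libraries against 4.27, 3.32 and 3.24 CPM in the KO libraries, and there too every KO value lay below every WT value.

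**Figure D3:**
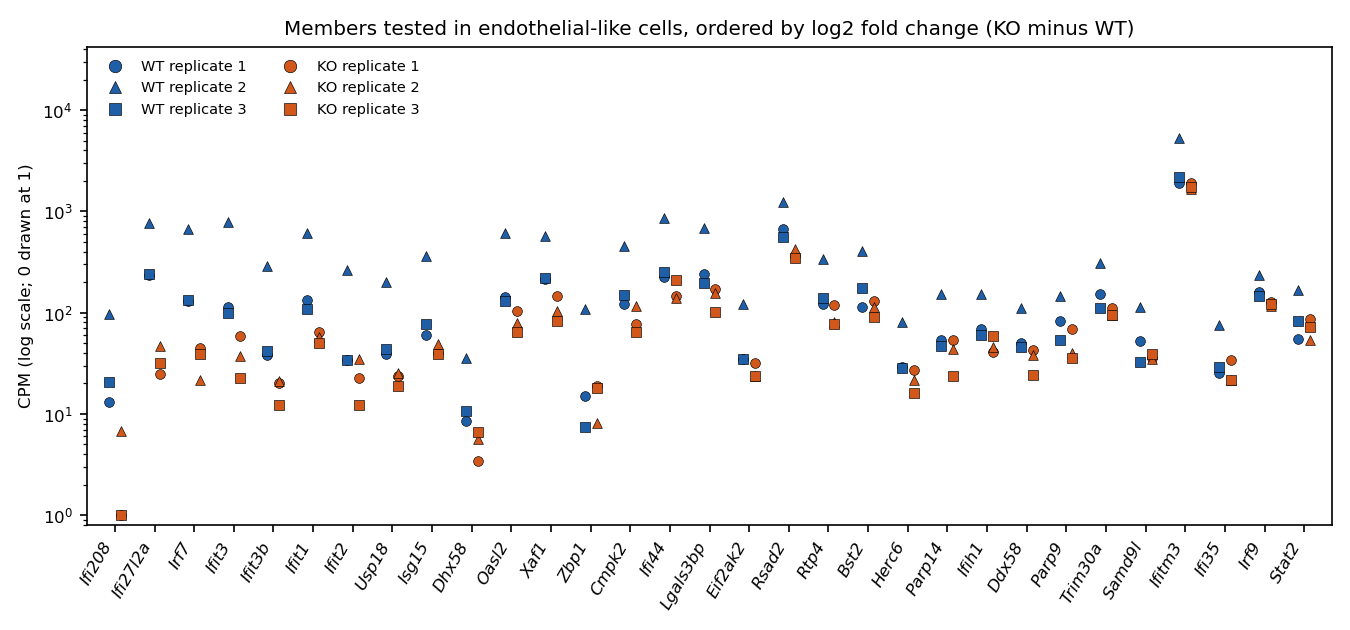
Levels of the 31 tested members in endothelial-like cells (CPM, log axis), 1 point per library, with values of 0 drawn at 1 CPM. *Ifi27l2a* stands at 236 CPM and above in WT and at 46.6 CPM and below in KO, and WT replicate 2 is the highest point for each member.

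The next members in endothelial-like cells were *Irf7*, the transcription factor that amplifies interferon production, and the IFIT genes. *Irf7* was 131, 664 and 133 CPM in the WT libraries against 44.6, 21.7 and 39.5 CPM in the KO libraries, with no overlap (log2 fold change -3.11 ± 0.57, edgeR adjusted p = 0.0534). *Ifit3*, an adaptor that stabilises IFIT1 on RNA, was 113, 785 and 100.1 CPM in the WT libraries against 58.3, 37.3 and 22.6 CPM in the KO libraries (edgeR adjusted p = 0.0982). *Ifit1*, which binds foreign RNA caps, was 133, 606 and 108 CPM in the WT libraries against 64.8, 57.8 and 49.8 CPM in the KO libraries (edgeR adjusted p = 0.103). None of these 3 passed with 6 libraries, and all 3 passed without WT replicate 2 and without both *Xist*-positive libraries. The adjusted p without WT replicate 2 was 0.00337 for *Irf7*, 0.0418 for *Ifit3* and 0.0183 for *Ifit1* (edgeR), at log2 fold changes of -1.87, -1.34 and -1.03. Of all genes 0.312% were called lower without WT replicate 2, and 0.164% without both.

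*Xaf1*, an interferon-induced partner of an apoptosis inhibitor, was 217, 575 and 218 CPM in the WT libraries against 145, 105 and 83.7 CPM in the KO libraries (edgeR adjusted p = 0.0864) and passed only where both *Xist*-positive libraries were left out (0.0235) among these 3 library sets. *Rsad2*, which encodes viperin, was 677, 1241 and 553 CPM in the WT libraries against 363, 422 and 349.8 CPM in the KO libraries, and *Isg15*, a ubiquitin-like protein, was 59.6, 362 and 77.7 CPM in the WT libraries against 40.0, 49.1 and 39.5 CPM in the KO libraries. The groups did not overlap for either gene. *Bst2*, which tethers virions to the cell, was 113, 406 and 174 CPM in the WT libraries against 130.0, 114 and 90.3 CPM in the KO libraries, with overlap. *Ifitm3*, the member with the most UMIs here, was 1917, 5261 and 2171 CPM in the WT libraries against 1914, 1679 and 1742 CPM in the KO libraries, and KO replicate 1 and WT replicate 1 differed by less than 1%. *Stat2*, a subunit of the factor that drives these genes, was 54.9, 166 and 82.7 CPM in the WT libraries against 87.3, 53.4 and 72.4 CPM in the KO libraries, and the groups overlapped. Its log2 fold change turned from -0.49 to 0.06 without WT replicate 2. By role, 4 of 4 secreted and ubiquitin-like members, 3 of 4 IFIT members, 5 of 6 sensors and 7 of 11 effectors did not overlap, but neither poly-ADP-ribose polymerase was among them.

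Marker genes in endothelial-like cells were checked beside these values. The endothelial markers summed to 10354 to 11608 CPM in WT and 10097 to 13210.0 CPM in KO. The 7 neutrophil markers, of which none was at 0 throughout, summed to 2.48 to 5.67 CPM in WT and 17.9 to 50.3 CPM in KO, so they moved with genotype. The 5 monocyte markers, of which 1 was at 0 throughout, summed to 447 to 713 CPM in WT and 453 to 562 CPM in KO. The part of these cells in the member levels was not tested.

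Stromal and mesangial-like cells took in fibroblasts, pericytes and mesangium and also the cluster led by *Ren1* and *Myh11*. The median log2 fold change of the members in this class was the lowest of the tested classes, -1.68 over 22 tested members. Without WT replicate 2 it was -0.58 and no longer the lowest, beside -0.62 in LOH-like and -0.50 in endothelial-like cells. In 12 of the 22 the groups did not overlap, beside 7.38% of all genes. 0 members passed by edgeR, beside 0.0348% of all genes called lower, and 18 were lower at an unadjusted p below 0.05. *Ifi27l2a* was 50.7, 489 and 57.1 CPM in the WT libraries against 2.01, 0 and 8.33 CPM in the KO libraries (log2 fold change -6.00 ± 1.17, edgeR adjusted p = 0.111). It was close to 0 in KO, and it passed without WT replicate 2 (log2 fold change -4.03, edgeR adjusted p = 0.0223). *Ifit1* was 90.9, 570.1 and 96.9 CPM in the WT libraries against 50.2, 16.1 and 8.33 CPM in the KO libraries, and passed only without both *Xist*-positive libraries (edgeR adjusted p = 0.00476) among these library sets. Of all genes 0.0498% and 0.0572% were called lower under these settings.

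In macrophage-like cells all 32 members were tested, 28 with a negative fold change, and the median was -0.90 (all genes -0.01). 3 members passed the test, *Irf7*, *Ifi208* and *Ifitm3*, all lower in KO, beside 0.351% of all genes. The groups did not overlap in 15 of 32 members, against 8.95% of all genes. None of the 4 IFIT members was among the 15. Leaving out KO replicate 1 gave 0 calls, and leaving out KO replicate 2 gave 1.

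*Irf7* in these cells was 138, 688 and 241 CPM in the WT libraries against 22.03, 25.8 and 23.1 CPM in the KO libraries. KO libraries lay within a narrow range, below the lowest WT library. The gene fell with a log2 fold change of -3.84 ± 0.56 (edgeR, adjusted p = 0.0113). It also passed without WT replicate 2 (-2.90, edgeR adjusted p = 0.00743) and without both *Xist*-positive libraries (-2.78, edgeR adjusted p = 0.0326). It was the 1 member called under the last setting, where 0.13% of all genes were called lower, against 0.292% without WT replicate 2 alone.

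*Ifi208* belongs to the PYHIN family, whose members sense DNA. It was 43.3, 53.3 and 59.6 CPM in the WT libraries against 0, 5.53 and 0 CPM in the KO libraries. These levels rest on 81 UMIs in WT and 3 in KO, a WT to KO ratio of 24.0 with an exact 95% interval of 7.92 to 119 that covers counting error only. It fell with a log2 fold change of -4.40 ± 0.66 (edgeR, adjusted p = 0.0113). WT replicate 2 did not stand out for this gene, and the adjusted p was 0.0279 without it (edgeR), but the call was lost without both *Xist*-positive libraries (edgeR adjusted p = 0.116). In endothelial-like cells *Ifi208* was 13.2, 96.4 and 20.7 CPM in the WT libraries against 0, 6.83 and 0 CPM in the KO libraries (edgeR adjusted p = 0.0973), on 157 and 11 UMIs, a ratio of 21.7 (exact 95% interval 11.8 to 44.3).

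*Ifitm3* in macrophage-like cells was 682, 2023 and 775 CPM in the WT libraries against 214, 289 and 192 CPM in the KO libraries. It fell with a log2 fold change of -2.24 ± 0.38 (edgeR, adjusted p = 0.0214), and without WT replicate 2 with one of -1.55 (edgeR, adjusted p = 0.0208). Without both *Xist*-positive libraries the adjusted p was 0.107 (edgeR). *Ifi27l2a* was 652, 1315 and 575 CPM in the WT libraries against 227, 357 and 269 CPM in the KO libraries (log2 fold change -1.49 ± 0.32, edgeR adjusted p = 0.0691), with no overlap and no call.

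Of the 5 most abundant members of macrophage-like cells *Ifitm3* was among the called ones, and the other four overlapped between genotypes. *Rsad2* was 804, 2703 and 4409 CPM in the WT libraries against 1103, 2117 and 4538 CPM in the KO libraries (log2 fold change 0.04 ± 0.56, edgeR adjusted p = 0.994). *Ifit1* was 793, 1077 and 1749 CPM in the WT libraries against 514, 1352 and 2369 CPM in the KO libraries, and *Ifit2* was 761, 1219 and 1522 CPM in the WT libraries against 539.6, 1139 and 1604 CPM in the KO libraries. For these 3 genes replicate 3 was the highest of its group in both WT and KO. *Ifit3* was 572, 1052 and 1052 CPM in the WT libraries against 384, 696 and 815 CPM in the KO libraries, and *Isg15* was 306, 862 and 831 CPM in the WT libraries against 409, 674 and 604 CPM in the KO libraries. *Isg15* is not among the 5 most abundant, and its WT and KO ranges overlapped too.

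**Figure D4:**
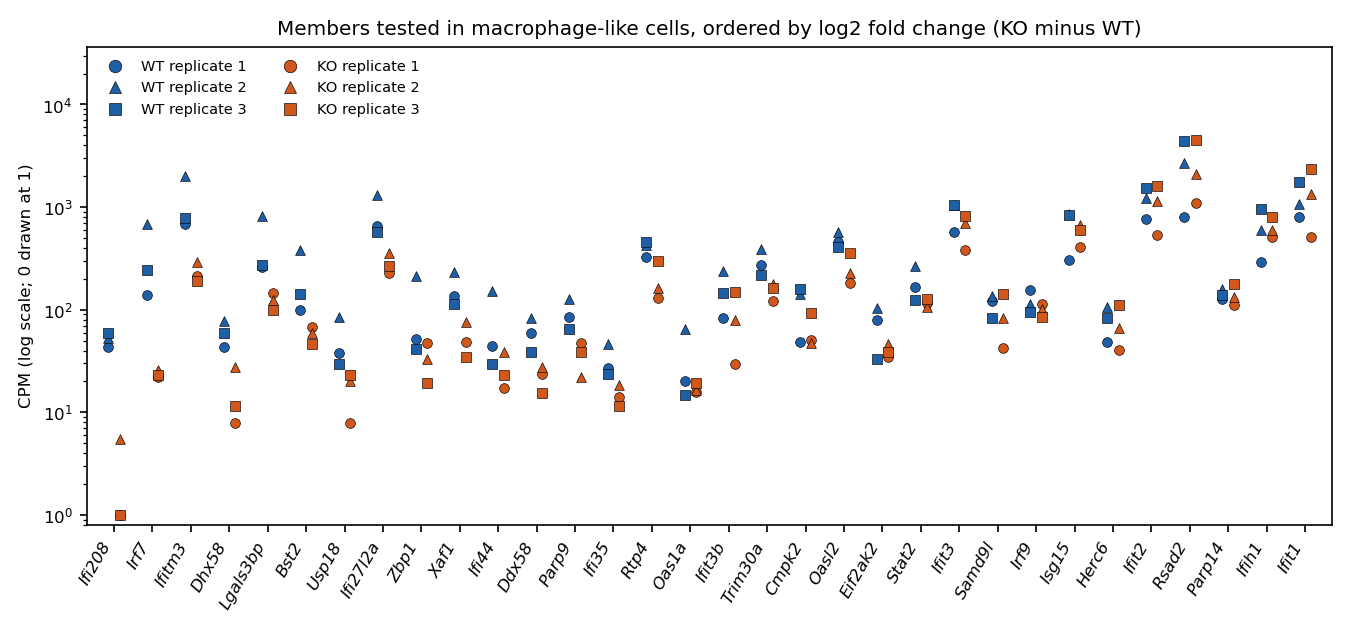
Levels of the 32 members in macrophage-like cells (CPM, log axis), 1 point per library, with values of 0 drawn at 1 CPM. *Irf7*, *Ifi208* and *Ifitm3* do not overlap between WT and KO, whereas *Rsad2*, *Ifit1* and *Ifit2* do.

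Macrophage-like cells were also where the ligand was read. *Ifnb1*, which encodes interferon beta, was 317, 506 and 929.5 CPM in the WT libraries against 345, 1041 and 1488 CPM in the KO libraries there, and the groups overlapped (log2 fold change 0.80 ± 0.49, edgeR adjusted p = 0.628). It was at 21.2 CPM or below in all other classes. The macrophage markers of this class summed to 6986 to 10683 CPM in WT and 5415 to 7281 CPM in KO, and the 6 B-cell markers, 2 of them at 0 in all libraries, summed to 232 to 382 CPM in WT and 127 to 221 CPM in KO. The 5 monocyte markers, 1 at 0 in all libraries, summed to 189 to 556 CPM in WT and 88.1 to 221 CPM in KO. Genes of dissociation stress, the early response to enzymatic digestion, summed to 44739 to 59225 CPM in WT and 52042 to 64062 CPM in KO. The B-cell marker sum moved with genotype, and its part in the member levels was not tested.

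LOH-like cells held the most calls. Of 26 tested members, all 26 had a negative fold change, and 9 were lower in KO at an adjusted p below 0.05, beside 2.35% of all genes called lower. The median was -0.89 (all genes 0.00). In 8 of 26 the groups did not overlap, against 10.8% of all genes. Without WT replicate 2 the median was -0.62 with 4 calls, and without both *Xist*-positive libraries -0.75 with 7 calls, beside 1.36% and 0.865% of all genes. With any single library left out the calls ranged from 2, without KO replicate 3, to 14, without WT replicate 1. Mitochondrial genes took a median of 39.9% to 43.8% of the UMIs of these cells. At a limit of 30% only 3 members could be tested, and 0 of them passed by edgeR. None of the 9 called members was among these 3, so that limit does not check the 9 calls.

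*Ifit3* had the lowest adjusted p. It was 28.5, 54.7 and 47.2 CPM in the WT libraries against 15.9, 14.0 and 16.7 CPM in the KO libraries, and the KO libraries lay within 3 CPM of each other. In the LOH-like cluster led by *Cldn10* it was 35.9, 54.7 and 37.6 CPM in the WT libraries against 10.95, 21.2 and 16.2 CPM in the KO libraries. In a cluster led by *Cldn16* and *Col5a2* it was 10.3, 21.7 and 44.1 CPM in the WT libraries against 8.39, 21.4 and 10.8 CPM in the KO libraries. There the groups overlapped, on 3 to 11 UMIs per library. The class also held a cluster led by *Tmem207* and *Cldn16*, whose *Ifit3* level is not given here. Over the whole class *Ifit3* fell with a log2 fold change of -1.49 ± 0.21 (edgeR, adjusted p = 0.00141). It also passed without WT replicate 2 (-1.30, edgeR adjusted p = 0.00681) and without both *Xist*-positive libraries (-1.30, edgeR adjusted p = 0.0186). Free RNA held *Ifit3* at 16.7, 68.3 and 15.3 CPM in the WT libraries against 16.8, 15.2 and 9.14 CPM in the KO libraries, so KO replicates 1 and 2 were near the free level of their library, WT replicates 1 and 3 and KO replicate 3 above it and WT replicate 2 below it. Its near copy *Ifit3b* was 13.5, 30.004 and 25.6 CPM in the WT libraries against 13.9, 2.67 and 7.49 CPM in the KO libraries (log2 fold change -1.58 ± 0.39, edgeR adjusted p = 0.0365), where KO replicate 1 overlapped WT.

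The gene pair *Rsad2* and *Cmpk2*, a viperin gene and a neighbouring nucleotide kinase gene, fell together. *Rsad2* was 15.7, 51.1 and 33.6 CPM in the WT libraries against 10.1, 8.16 and 16.8 CPM in the KO libraries (log2 fold change -1.48 ± 0.35, edgeR adjusted p = 0.0324), with KO replicate 3 above WT replicate 1. *Cmpk2* was 7.58, 14.5 and 7.10 CPM in the WT libraries against 4.02, 5.00 and 2.78 CPM in the KO libraries, with no overlap (log2 fold change -1.33 ± 0.31, edgeR adjusted p = 0.0293).

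The other 5 called members were at low levels. *Ifi44* was 3.70, 16.5 and 3.08 CPM in the WT libraries against 0.402, 0.667 and 0.121 CPM in the KO libraries (log2 fold change -4.31 ± 0.82, edgeR adjusted p = 0.00911). *Irf7* was 4.25, 17.1 and 3.35 CPM in the WT libraries against 1.41, 0.667 and 0.483 CPM in the KO libraries (log2 fold change -3.34 ± 0.69, edgeR adjusted p = 0.0146). *Usp18*, the protease that takes ISG15 off its targets and damps the receptor, was 2.77, 20.3 and 2.01 CPM in the WT libraries against 1.41, 0.333 and 0.241 CPM in the KO libraries (edgeR adjusted p = 0.0440). For these 3 the WT replicates 1 and 3 were at or below 4.25 CPM and replicate 2 was several-fold higher. *Bst2* was 5.73, 23.4 and 6.30 CPM in the WT libraries against 3.62, 1.83 and 2.41 CPM in the KO libraries (log2 fold change -2.19 ± 0.52, edgeR adjusted p = 0.0326). *Lgals3bp*, a secreted glycoprotein, was 13.1, 75.0 and 14.5 CPM in the WT libraries against 9.46, 4.33 and 5.31 CPM in the KO libraries (log2 fold change -2.46 ± 0.60, edgeR adjusted p = 0.0363). None of the 5 overlapped between groups. Not all 9 calls of this class held with fewer libraries. *Cmpk2* and *Rsad2* lost the call without WT replicate 2 (edgeR adjusted p = 0.113 and 0.127) and without both *Xist*-positive libraries (0.203 and 0.275). *Ifit3b*, *Usp18* and *Bst2* lost it only in the first of these settings (edgeR adjusted p = 0.129, 0.130 and 0.0594), and *Ifit3*, *Ifi44*, *Irf7* and *Lgals3bp* passed in both.

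These 5 were also low relative to free RNA. Free RNA held *Ifi44* at 5.58, 24.2 and 6.75 CPM in the WT libraries against 9.30, 8.77 and 3.05 CPM in the KO libraries, *Irf7* at 4.14, 29.0 and 5.76 CPM in the WT libraries against 5.34, 2.53 and 4.00 CPM in the KO libraries and *Usp18* at 4.62, 17.9 and 2.47 CPM in the WT libraries against 3.36, 1.33 and 2.86 CPM in the KO libraries. It held *Bst2* at 4.62, 24.5 and 7.24 CPM in the WT libraries against 9.61, 4.78 and 4.19 CPM in the KO libraries and *Lgals3bp* at 18.3, 97.6 and 23.4 CPM in the WT libraries against 25.0, 9.57 and 9.52 CPM in the KO libraries. The LOH-like values of these genes lay below or near the free values of the same library, and the part of free RNA in them was not tested. *Ifit1* was different in this respect. In LOH-like cells it was 78.7, 268 and 230.2 CPM in the WT libraries against 107, 169 and 127 CPM in the KO libraries, with overlap between groups (log2 fold change -0.52 ± 0.32, edgeR adjusted p = 0.466). Its free RNA level, 49.7, 126 and 62.4 CPM in the WT libraries against 68.6, 47.7 and 50.1 CPM in the KO libraries, was lower in each library. *Isg15* was 29.0, 84.7 and 41.8 CPM in the WT libraries against 33.2, 36.5 and 31.3 CPM in the KO libraries (edgeR adjusted p = 0.271).

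The markers of LOH-like cells summed to 50150.2 to 56989.7 CPM, endothelial markers to 12.2 to 20.1 CPM and macrophage markers to 3.89 to 7.49 CPM. The 7 neutrophil markers, 1 at 0 in all libraries, summed to 0.924 to 1.65 CPM in WT and 2.54 to 7.64 CPM in KO, and the 16 dissociation stress genes to 9797 to 12597 CPM in WT and 13936 to 16590.0 CPM in KO. Both sets were higher in each KO library, and their part in the member levels was not tested. Erythrocyte markers were at 1488 CPM in KO replicate 1 and at most 0.739 CPM in the other libraries.

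The genotype effect was compared between classes by the class by genotype term of edgeR, with the mouse as a block. *Ifi27l2a* differed between macrophage-like and endothelial-like cells, with a macrophage minus endothelial difference of log2 fold changes of 1.99 ± 0.28 (adjusted p = 2.71e-04), and *Ifitm3* differed the other way, -1.41 ± 0.25 (adjusted p = 0.00435). Of all genes, 0.211% were called. *Rsad2* differed between macrophage-like and LOH-like cells by 1.61 ± 0.29 (adjusted p = 9.35e-05), where 5 members were called beside 0.557% of all genes. *Ifi44* differed between endothelial-like and LOH-like cells by 2.88 ± 0.45 (adjusted p = 3.99e-04), where 3 members were called beside 0.845% of all genes. Its LOH-like level in KO was close to 0, so the size of this difference is uncertain. Without both *Xist*-positive libraries 3, 4 and 2 members were called in these comparisons, beside 0.264%, 0.38% and 0.535% of all genes. *Ifitm3* then lost its call (edgeR adjusted p = 0.131), whereas *Ifi27l2a*, *Rsad2* and *Ifi44* kept theirs. A positive difference means that the gene was less lowered, or more raised, in the first class.

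Podocyte-like cells, the filter cells of the glomerulus, had a member median near 0. Whether this differs from the other classes was not tested. 0 of 24 tested members passed by edgeR, beside 1.14% of all genes called higher. At an unadjusted p below 0.05, 0 members were lower and 2 higher. The median was -0.02 (all genes 0.01). In 2 members, *Parp14* and *Ifitm3*, every KO library lay above every WT library, beside 12.1% of all genes. *Parp14* was 3.94, 6.74 and 1.31 CPM in the WT libraries against 19.8, 7.76 and 12.4 CPM in the KO libraries (log2 fold change 1.65 ± 0.44, edgeR adjusted p = 0.0837), and *Ifitm3* was 1.75, 6.91 and 2.36 CPM in the WT libraries against 12.0, 7.50 and 11.9 CPM in the KO libraries (log2 fold change 1.39 ± 0.42, edgeR adjusted p = 0.114). Both stayed short of the threshold with 6 libraries.

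Without WT replicate 2 the podocyte-like median was 1.14, and in 17 of 24 members every KO library lay above both remaining WT libraries, beside 16.2% of all genes. *Ifitm3* then passed (log2 fold change 2.31, edgeR adjusted p = 0.0314), beside 0.385% of all genes called higher. *Oasl2*, an OAS-like protein, was 0.875, 20.6 and 0.788 CPM in the WT libraries against 32.7, 5.95 and 14.5 CPM in the KO libraries, and *Rtp4*, an interferon-induced chaperone of receptors, was 2.19, 89.3 and 2.36 CPM in the WT libraries against 32.5, 5.17 and 26.0 CPM in the KO libraries. *Stat2* was 27.3, 94.9 and 26.5 CPM in the WT libraries against 73.4, 41.6 and 75.1 CPM in the KO libraries. For these 3 genes WT replicates 1 and 3 were the lowest libraries and WT replicate 2 was above at least 1 KO library. KO replicate 1, the other *Xist*-positive library, was the highest KO library for 19 of the 24. Without both, *Ifitm3* (2.20, edgeR adjusted p = 0.0452) and *Oasl2* (3.49, edgeR adjusted p = 0.0246) passed, beside 0.451% of all genes. The 8 podocyte markers summed to 21132 to 25662 CPM in WT and 18059 to 19682 CPM in KO, and the 7 neutrophil markers to 0.525 to 1.69 CPM in WT and 5.43 to 26.3 CPM in KO, with none of either list at 0 throughout. Both sums moved with genotype, and their part in the member levels was not tested. Levels of *Ifitm3* in podocyte-like cells stayed below free RNA, which held 52.4, 164 and 49.4 CPM in the WT libraries against 110.4, 54.0 and 46.7 CPM in the KO libraries.

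In the remaining classes no member passed with 6 libraries by edgeR. At an unadjusted p below 0.05, 10 members were lower in T and NK-like cells, 10 in principal cell-like cells, 3 in distal convoluted tubule-like cells and 1 each in intercalated, connecting tubule and macula densa-like cells. At the adjusted threshold, which is stricter, the shares of all genes called lower were 0.0252%, 1.51%, 0.481%, 0.305%, 0.869% and 0.284% in that order. The median log2 fold changes of the tested members were -1.36, -0.90, -0.61, -0.34, 0.03 and -0.25, and without WT replicate 2 they were -0.55, 0.02, -0.01, 0.27, 0.45 and 0.27. In macula densa-like cells, which sense tubular salt, *Stat2* was 7.59, 29.4 and 6.88 CPM in the WT libraries against 35.6, 34.5 and 33.6 CPM in the KO libraries (edgeR adjusted p = 0.271). There it passed as higher in KO without WT replicate 2 (log2 fold change 2.25, edgeR adjusted p = 0.0248), beside 0.137% of all genes. *Ifit1* there was 28.2, 199 and 69.9 CPM in the WT libraries against 366, 70.3 and 469 CPM in the KO libraries, with KO replicates 1 and 3 highest and KO replicate 2 inside the WT range.

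The wider pathway was read from lists of ligands, receptors and kinases, sensors and adaptors, negative regulators, other interferon-stimulated genes and interferon-inducible GTPases. Over the 11 classes the calls, lower and higher in KO, were 0 and 0 of 5 tested gene-class pairs for ligands, 1 and 2 of 103 for receptors and kinases, 1 and 0 of 101 for sensors and adaptors, 3 and 1 of 122 for negative regulators, 6 and 4 of 319 for other interferon-stimulated genes, and 1 and 4 of 102 for GTPases. Over all pairs of gene and class the shares called were 0.745% lower and 0.802% higher, and counts of 1 in about 100 pairs are near these shares. No call fell on *Ifnar1*, *Ifnar2*, *Jak1* or *Tyk2* in endothelial, macrophage, LOH or podocyte-like cells.

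In macrophage-like cells 5 other interferon-stimulated genes fell. *Ifi213* and *Ifi206*, which are PYHIN genes like *Ifi208*, were 268, 261 and 262 CPM in the WT libraries against 64.5, 77.4 and 92.3 CPM in the KO libraries (log2 fold change -1.70 ± 0.24, edgeR adjusted p = 0.0113) and 199, 206 and 191 CPM in the WT libraries against 66.1, 73.7 and 96.2 CPM in the KO libraries (log2 fold change -1.28 ± 0.25, edgeR adjusted p = 0.0441). For both, WT replicates were nearly equal and WT replicate 2 did not stand out. *Oas2*, whose product activates RNase L, was 63.6, 57.0 and 50.6 CPM in the WT libraries against 12.6, 16.6 and 19.2 CPM in the KO libraries (log2 fold change -1.80 ± 0.33, edgeR adjusted p = 0.0346). *Trim30d* (-1.85 ± 0.31, edgeR adjusted p = 0.0205) and *Slfn5* (-1.81 ± 0.31, edgeR adjusted p = 0.0214) were the other two. Without WT replicate 2 *Ifi213* and *Trim30d* passed (edgeR adjusted p = 0.0164 and 0.0475), whereas *Ifi206*, *Oas2* and *Slfn5* did not (0.0882, 0.0685 and 0.0620). Without both *Xist*-positive libraries none of the 5 passed, with edgeR adjusted p from 0.0774 for *Trim30d* to 0.376 for *Ifi206*. The PYHIN genes are close relatives in a cluster, so reads may be shared between them.

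In podocyte-like cells 4 interferon-inducible GTPases rose, beside 1.14% of all genes called higher there. *Tgtp1* was 2.62, 4.04 and 0 CPM in the WT libraries against 104, 10.9 and 65.3 CPM in the KO libraries (log2 fold change 4.58 ± 0.79, edgeR adjusted p = 0.0165), and its near copy *Tgtp2* was 5.91, 6.57 and 1.58 CPM in the WT libraries against 149.9, 11.6 and 99.8 CPM in the KO libraries (log2 fold change 4.12 ± 0.76, edgeR adjusted p = 0.0217). *Ifi47* was 1.31, 2.70 and 0.263 CPM in the WT libraries against 48.4, 6.47 and 23.5 CPM in the KO libraries (log2 fold change 4.04 ± 0.72, edgeR adjusted p = 0.0193), and *9930111J21Rik2* was the fourth (edgeR adjusted p = 0.0370). For *Tgtp1*, *Tgtp2* and *Ifi47* WT replicate 2 was below every KO library and KO replicate 1 was highest. Without WT replicate 2 none of the 4 GTPases passed (edgeR adjusted p = 0.0714 for *Tgtp1*, 0.0949 for *Tgtp2*, 0.0705 for *Ifi47* and 0.111 for *9930111J21Rik2*), at log2 fold changes of 5.35, 4.45, 4.93 and 4.85. Without both *Xist*-positive libraries *Tgtp1* and *Ifi47* passed (log2 fold changes 4.64 and 4.03, edgeR adjusted p = 0.0452 and 0.0352) and *Tgtp2* and *9930111J21Rik2* did not (0.0827 and 0.0980). *Cxcl10*, a chemokine, *Ifitm1* and *Tent5a* were also called higher with 6 libraries (log2 fold changes 1.58 ± 0.34, 0.92 ± 0.16 and 1.69 ± 0.31), but all 3 calls were lost without WT replicate 2 (edgeR adjusted p = 0.168, 0.0930 and 0.112) and without both *Xist*-positive libraries (0.0843, 0.123 and 0.207). *Stat3* rose (0.67 ± 0.11, edgeR adjusted p = 0.0124) and passed in both settings, as did the 2 genes that fell. In the other direction 0.592% of all genes were called. *Ifngr1*, the receptor for interferon gamma, was 213, 201 and 174 CPM in the WT libraries against 105, 95.7 and 101 CPM in the KO libraries and fell (log2 fold change -0.97 ± 0.10, edgeR adjusted p = 0.00130). *Tlr7*, a sensor of RNA in endosomes, was 68.7, 58.8 and 65.4 CPM in the WT libraries against 26.7, 40.9 and 28.6 CPM in the KO libraries and fell (log2 fold change -1.01 ± 0.16, edgeR adjusted p = 0.00991).

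**Figure D5:**
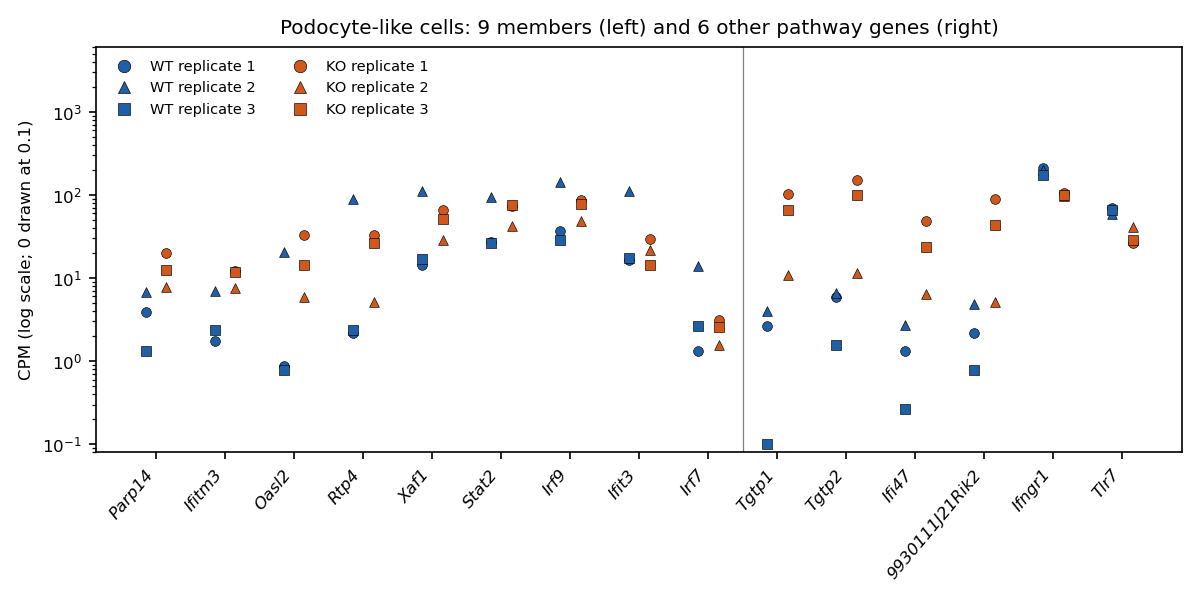
Levels of members and interferon-inducible GTPases in podocyte-like cells (CPM, log axis), 1 point per library, with the value of 0 drawn at 0.1 CPM. The GTPases *Tgtp1*, *Tgtp2* and *Ifi47* lie higher in each KO library than in each WT library, and for *Oasl2* and *Rtp4* WT replicates 1 and 3 are the lowest libraries.

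In LOH-like cells *Gbp2*, a guanylate-binding protein, was 9.06, 9.89 and 7.37 CPM in the WT libraries against 3.02, 3.17 and 3.38 CPM in the KO libraries and fell (log2 fold change -1.43 ± 0.22, edgeR adjusted p = 0.00277), and *Ifi27* fell as well (-1.77 ± 0.44, edgeR adjusted p = 0.0394). *Socs3*, an inhibitor of cytokine signalling, was 161, 232 and 207 CPM in the WT libraries against 345, 310.1 and 315 CPM in the KO libraries and rose (log2 fold change 0.69 ± 0.12, edgeR adjusted p = 0.00527). *Ifngr1* rose here (0.77 ± 0.19, edgeR adjusted p = 0.0376) and fell in podocyte-like cells. The dissociation stress genes *Fos* (0.56 ± 0.14) and *Zfp36* (0.50 ± 0.12) rose and *Nr4a1* (-1.20 ± 0.09) fell in the same cells, which are the 2 and 1 calls of that list over 175 tested pairs. *Irf2bp2*, a corepressor, fell in LOH-like (-0.44 ± 0.11), distal convoluted tubule-like (-0.85 ± 0.14) and principal cell-like cells (-0.82 ± 0.15), and *Tent5a* rose in principal cell-like cells (1.20 ± 0.25). All these values are log2 fold changes. *Fos*, *Zfp36*, *Ifngr1* and *Irf2bp2* in LOH-like cells and *Tent5a* in principal cell-like cells lost the call both without WT replicate 2 and without both *Xist*-positive libraries. *Irf2bp2* in the distal convoluted and principal cell classes lost it only in the second setting (edgeR adjusted p = 0.0705 and 0.0955), and *Gbp2*, *Ifi27*, *Socs3* and *Nr4a1* passed in both. Of 6 tested pairs for plasmacytoid dendritic cell markers 0 were called. No erythrocyte marker had enough counts in enough libraries to test in any class. In the sum over all cells 3 erythrocyte markers were tested and 0 were called.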

How the data were processed

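Single-cell libraries of renal cortex were made by the authors on the BD Rhapsody system, aligned to mm10, and deposited as raw UMI counts per gene and barcode, not normalized and with all barcodes. Per the study's methods, cells with 500 to 60000 UMIs and 200 to 8000 genes were kept, and Scanpy (version 1.8) was used downstream. The same bounds were applied here, with at most 50% mitochondrial UMIs, a limit chosen here. Scrublet's automatic threshold marked 0.0747% to 0.292% of cells, so instead the top 6% by doublet score were dropped in every library. Cells were clustered (2000 variable genes without the members, the pathway lists, mitochondrial genes, *Xist* and Y-linked genes, 30 principal components, resolution 1), giving 30 clusters, of which 2 stayed unnamed.

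UMI counts were summed per library and class, and edgeR 4.0.16 in R 4.3.3 (TMM, filterByExpr with a minimum count of 10, two-sided quasi-likelihood test, Benjamini-Hochberg over all genes of a class) compared 3 KO with 3 WT libraries. An exact permutation test of 3 against 3 cannot go below p = 0.1, and 1 library stands for 1 mouse. The script was tested on simulated data. Intervals cover counting error only. Named are members called in any class, the 5 highest in each of the 3 highest tested classes, 8 examples of the roles in any class, and called pathway genes. The members, lists and marker genes were chosen with earlier results of these data known. *Parp14* and *Rtp4* were added after their values were seen, and the other members are given as counts. Alternatives were RLE scaling, DESeq2 1.42.0, no count filter, other limits for cells and doublets, other class rules, a block for *Xist*-positive libraries and left-out libraries.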

Additional observations from a re-analysis of the deposited data

Results flagged for a closer look

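The genotype effect differed between classes, by the edgeR class by genotype term, for 10 pairs of member and class comparison. Endothelial minus LOH-like log2 fold changes differed for *Ifi44* by 2.88 ± 0.45 (adjusted p = 3.99e-04), for *Ifit1* by -1.49 ± 0.34 (adjusted p = 0.0240) and for *Isg15* by -1.08 ± 0.25 (adjusted p = 0.0246). The first was thus less lowered in endothelial-like cells and the other two more lowered there. In LOH-like cells *Ifi44* was close to 0 in KO and below the free RNA of the same library. The size of its differences against LOH-like cells, here and below, is therefore uncertain.

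Macrophage minus LOH-like log2 fold changes differed for *Ifi44* by 2.78 ± 0.66 (adjusted p = 0.0162), for *Ifit3* by 1.05 ± 0.26 (adjusted p = 0.0274), for *Oasl2* by 1.30 ± 0.35 (adjusted p = 0.0469) and for *Rsad2* by 1.61 ± 0.29 (adjusted p = 9.35e-05). *Ifitm3* differed the other way, by -1.32 ± 0.33 (adjusted p = 0.0274). Macrophage minus endothelial-like log2 fold changes differed for *Ifi27l2a* by 1.99 ± 0.28 (adjusted p = 2.71e-04) and for *Ifitm3* by -1.41 ± 0.25 (adjusted p = 0.00435) (edgeR).

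With both *Xist*-positive libraries left out, a choice made after the data were seen, *Ifi44* and *Ifit1* were called for endothelial against LOH-like cells, *Ifit2*, *Ifit3*, *Ifit3b* and *Rsad2* for macrophage against LOH-like cells, and *Ifi27l2a*, *Ifit1* and *Ifit3* for macrophage against endothelial-like cells. The differences were then 2.78 ± 0.58 (adjusted p = 0.00302) for *Ifi44* in the first, 1.77 ± 0.30 (adjusted p = 6.18e-06) for *Rsad2* in the second and 1.73 ± 0.36 (adjusted p = 0.0182) for *Ifi27l2a* in the third (edgeR). *Ifitm3* was not called in either macrophage comparison.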

How the results depend on the processing

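The 13 called pairs of member and class gave 199 results under alternatives, of which 151 stayed past the threshold and 0 changed sign. *Ifi27l2a* in endothelial-like cells was called in 16 of 16 alternatives, and in macrophage-like cells *Irf7* and *Ifi208* were called in 14 of 16 and *Ifitm3* in 12 of 16. In LOH-like cells *Ifit3* was called in 15 of 15, *Ifi44* in 14, *Irf7* in 13, *Bst2*, *Cmpk2* and *Lgals3bp* in 10, *Ifit3b* and *Rsad2* in 8 and *Usp18* in 7. The mitochondrial limit of 30% is not among these 15, since none of these members could be tested there in LOH-like cells. The counts of calls moved more. The 9 LOH-like members lower in KO became 4 with DESeq2, 21 with no count filter, 14 with a block for *Xist*-positive libraries, 4 with classes from single-cell scores and 2 to 14 with 1 library left out. At a mitochondrial limit of 30% none of these 9 could be tested, and 0 of the 3 other members that could be tested there passed. Of all LOH-like genes 2.01% were called lower with DESeq2, 2.68% with no filter and 2.67% with the *Xist* block. The 1 endothelial-like member became 3 with DESeq2, 29 with no filter, 14 with the *Xist* block, 5 without both *Xist*-positive libraries, 2 at the 30% limit, 2 with automatic or no doublet removal, and 1 to 9 with 1 library left out. In endothelial-like cells these shares were 0.327%, 1.09% and 0.802% of all genes. The 3 macrophage-like members became 7 with DESeq2, 13 with no filter, 1 without both *Xist*-positive libraries, and 0 to 5 with 1 library left out. Of all macrophage-like genes 0.698% were called lower with DESeq2 and 0.587% with no filter. The 0 pairs lower in the other 8 classes became 3, 76 and 17 with DESeq2, no filter and the *Xist* block, 3 without both *Xist*-positive libraries, 1 at the 30% limit and 0 to 9 with 1 library left out. Of all pairs of gene and class there 0.759%, 1.28% and 0.717% were called lower with DESeq2, no filter and the *Xist* block. The 0 pairs higher became 2, 9 and 1 with DESeq2, no filter and the *Xist* block, 3 without both and 0 to 2 with 1 library left out, beside 0.88%, 1.26% and 0.941% of all pairs in the 11 classes with DESeq2, no filter and the *Xist* block. Over all cells the 0 members became 1 with DESeq2, no filter, the *Xist* block or the 30% limit, and 0 with any library left out. Shares of all genes were not computed at the 30% limit, with single-cell scores or with other doublet rules. Nor were they computed with a single library other than WT replicate 2 left out. For the sum over all cells they were not computed with DESeq2, no filter or the *Xist* block. For pairs over several classes they were not computed without WT replicate 2 or without both *Xist*-positive libraries. Counts under these settings, in any section, have no background beside them.

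Pathway genes lower in KO, 12 pairs, became 24 with DESeq2, 119 with no filter, 33 with the *Xist* block, 5 without both *Xist*-positive libraries, 7 at the 30% limit and 3 to 25 with 1 library left out. Over the 11 classes 0.865%, 1.34% and 0.936% of all pairs were called lower with DESeq2, no filter and the *Xist* block. The 11 higher became 76, 23, 7 and 4 to 18 with no filter, the *Xist* block, both left out and 1 left out. The summed level in connecting tubule-like cells moved from 245 CPM to 433 CPM at the 30% limit, which leaves fewer cells. With 1 library left out the summed levels ranged from 193 to 263 CPM in connecting tubule, 269.5 to 381 in distal convoluted tubule, 384 to 527 in intercalated, 430.0 to 584 in LOH, 734 to 1039 in principal cell, 1007 to 1586 in T and NK, 4463 to 7010.0 in endothelial, 10064 to 12299.6 in macrophage, 701 to 889 in macula densa, 417 to 598 in podocyte and 2469 to 4620.4 in stromal and mesangial-like cells.

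Same-numbered libraries did not all deviate together, with correlations over all cells of 0.22, -0.07 and 0.26 for replicates 1, 2 and 3. Deviations from a mean of 3 libraries are not independent, so this cannot settle whether the replicate numbers pair the mice. A replicate block gave 2 endothelial-like, 9 macrophage-like, 1 other and 1 all-cell member lower, 2 pairs higher, and 23 lower and 17 higher pathway pairs. The share of all genes called under this block was not computed, so these counts have no background beside them. Directions turned for members that were not called. In macrophage-like cells *Ifit3* was 0.010 and *Isg15* 0.28 (log2 fold change) without both *Xist*-positive libraries. With 1 library left out *Ifit1* ranged from -0.31 (without KO replicate 3) to 0.76, and *Isg15* from -0.55 to 0.080, positive without WT replicate 2 or 3 or KO replicate 1. *Stat2* in LOH-like cells was 0.19 without both, 0.059 with single-cell scores and -0.29 to 0.20 with 1 library left out, and in endothelial-like cells -0.79 to 0.063, positive in both only without WT replicate 2. The cause of these changes was not tested. With 3 mice per group, 1 WT library high for all members and 2 libraries against the male label, genotype, sex and mouse cannot be fully told apart.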
